A study of Mus musculus with 6 samples.

Results

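The regulators described here are 10 genes that govern oxidative metabolism in skeletal muscle: Ppargc1a, Ppargc1b, Perm1, Esrra, Esrrb, Esrrg, Ppara, Ppard, Nrf1 and Tfam. They were found by gene symbol among the 24421 genes counted in each library, and all 10 passed the filter on low counts that left 14180 genes to test. The samples are GP (gastrocnemius and plantaris) muscles of male mice of a line labelled B6C3F1 and, per the study's methods, founded on that background and mated to C57BL/6N, taken at an age of 5 months, 3 months after tamoxifen, and measured by bulk RNA-Seq. By their labels, the 3 Ctrl mice carried Net39 fl/fl, a conditional allele of the nuclear envelope gene Net39, without Cre. The 3 cKO mice carried, again by label, the same allele with HSACreERT2, a tamoxifen-inducible Cre that the human skeletal actin promoter drives in muscle fibers but not in satellite cells, so other cells of the muscle keep the floxed gene intact. Both groups received tamoxifen. The question here is how the transcripts of these regulators, and of the genes around them, differ between the labelled groups.

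Counts per library summed to between 33860001 and 48839910. Net39, which is listed under its older symbol Ppapdc3, had 217 to 321 counts among Ctrl-labelled libraries and 4340 to 6080 among cKO-labelled ones. The targeted gene therefore goes against the labels. The labels were kept as deposited, every direction below is for the libraries so labelled, and log2 fold changes are labelled cKO over labelled Ctrl. Defining transcripts of skeletal muscle, among them Acta1, Ckm and the adult myosin heavy chains, summed to at least 96363 CPM (counts scaled to the effective library size) in each library, and adipocyte markers to at most 253 CPM.

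PGC-1 coactivators (Ppargc1a, Ppargc1b) bind no DNA themselves. They dock on nuclear receptors and other factors and raise transcription of mitochondrial and fatty acid genes, and endurance exercise and cold induce Ppargc1a. The estrogen-related receptors (Esrra, Esrrb, Esrrg) are orphan receptors that bind the half-site AAGGTCA, often in an extended form, and are the main partners of PGC-1 at genes of the respiratory chain and the citric acid cycle, while PPAR receptors (Ppara, Ppard) bind as heterodimers with RXR and respond to fatty acids. Perm1 is a striated muscle protein that PGC-1 and ERR induce. Nrf1 drives nuclear genes for the respiratory chain and for Tfam, which packages mitochondrial DNA and acts in starting its transcription.

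Esrrg and Ppara differed most. Among Ctrl-labelled libraries, where Net39 was low, these receptors were each more than 2-fold higher than among cKO-labelled ones, and Tfam was lower by a smaller amount. These 3 of the 10 regulators passed an adjusted p of 0.05 in edgeR's quasi-likelihood test, 2 higher among Ctrl-labelled libraries and 1 higher among cKO-labelled ones. The same test called 24.4% of all genes tested, 11.8% higher among Ctrl-labelled libraries and 12.6% higher among cKO-labelled ones, so the share among the regulators was near the background. Past a fold change of 2 as well, 2 regulators were called, both higher where the label is Ctrl, against 6.05% of all genes tested (3.92% higher with the label Ctrl and 2.13% with cKO). The other 7 regulators, among them Ppargc1a, Ppargc1b, Esrra, Ppard and Nrf1, did not pass. One library could change the count. It was 1 (Esrrg) without the library labelled Ctrl 1, Ctrl 2, cKO 1 or cKO 3, and 4 without cKO 2.

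**Figure D1:**
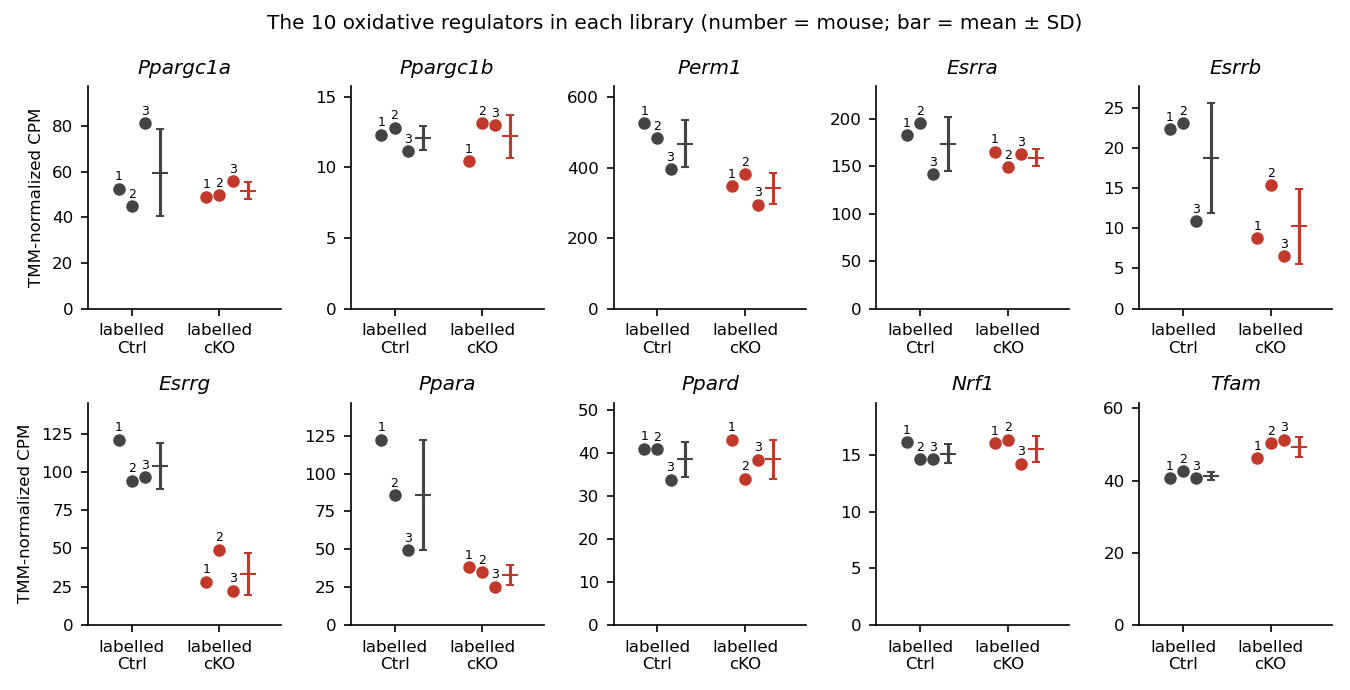
TMM-normalized CPM (vertical axis, from 0) of each regulator in the 3 libraries labelled Ctrl (grey) and the 3 labelled cKO (red), with mouse numbers beside the points and the mean ± SD at the right of each group. Values do not overlap for Esrrg, Ppara, Perm1 and Tfam, and a single library labelled Ctrl stands apart for Ppargc1a (81.3 CPM in Ctrl 3) and Esrrb (10.8 CPM in Ctrl 3).

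**Figure D2:**
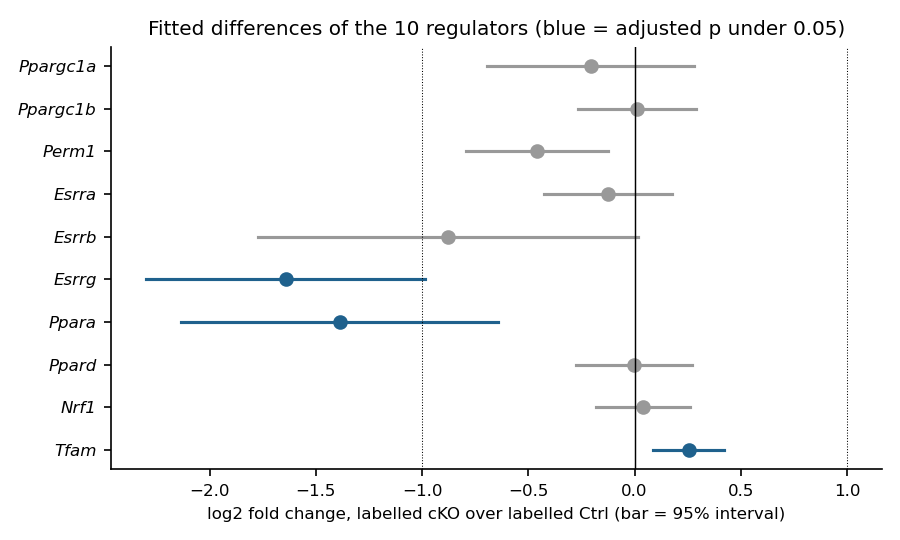
Fitted log2 fold change of each regulator, labelled cKO over labelled Ctrl (horizontal axis), with its 95% interval as a bar and dotted lines at a fold change of 2. Esrrg, Ppara and Tfam (blue) passed an adjusted p of 0.05, and the interval of Esrrg runs from -2.30 to -0.99.

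The promoters of 3 regulators are shown because each holds a letter match to a factor of this network, and because the transcripts of these genes did not overlap between the labelled groups. Each is the 250 bases before a RefSeq transcript start on GRCm38.p6 (mm10 is the same assembly), with the match in capitals. In Esrrg (plus strand, chr1:187608756-187609005) the capitals mark a site of the form that MEF2 factors bind. In Ppara (plus strand, chr15:85735526-85735775) they mark a match to the NRF1 motif, and in Perm1 (plus strand, chr4:156215677-156215926) the reverse complement of the ERR half-site AAGGTCA.
Esrrg: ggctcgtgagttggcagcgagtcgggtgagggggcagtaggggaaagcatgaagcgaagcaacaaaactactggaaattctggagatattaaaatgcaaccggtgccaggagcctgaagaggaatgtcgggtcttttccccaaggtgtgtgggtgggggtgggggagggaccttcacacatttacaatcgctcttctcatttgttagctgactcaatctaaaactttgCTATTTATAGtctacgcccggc
Ppara: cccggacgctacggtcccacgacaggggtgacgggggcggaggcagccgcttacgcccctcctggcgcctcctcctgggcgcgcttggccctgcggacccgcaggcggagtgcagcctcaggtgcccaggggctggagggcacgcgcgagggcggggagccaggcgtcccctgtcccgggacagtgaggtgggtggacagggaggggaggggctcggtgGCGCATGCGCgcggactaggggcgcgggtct
Perm1: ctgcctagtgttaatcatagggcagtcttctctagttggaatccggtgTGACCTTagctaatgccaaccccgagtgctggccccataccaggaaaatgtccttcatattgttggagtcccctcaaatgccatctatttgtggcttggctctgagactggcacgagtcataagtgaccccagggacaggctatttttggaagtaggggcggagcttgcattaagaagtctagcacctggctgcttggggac

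The match in Esrrg lies 22 to 13 bases before the start, that in Ppara 31 to 22 bases and that in Perm1 202 to 196 bases. Both strands were searched in 14 windows of 9 regulators and, for comparison, in all 32851 RefSeq windows of this length, where the MEF2 form occurred in 0.14%, the NRF1 site in 3.74% and the ERR half-site in 4.08%. The extended ERR site TNAAGGTCA, the PPAR-RXR direct repeat (AGGTCA repeated with 1 base between), the cAMP response element TGACGTCA and the GABP site CCGGAAGTG occurred in 1.14%, 0.0335%, 1.55% and 1.44% of all windows, and these letters are not in the 14 windows. The extended ERR site contains the half-site. Esrrg has 4 annotated windows, of which the first holds the match, and counts per gene do not tell which start is used.

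Levels were compared between genes per kilobase of exon (CPM/kb, with the union of exons of GENCODE M21). The annotation behind the counts is not given, so the order of genes here and the family shares below depend on these lengths. In the libraries labelled Ctrl, Perm1 was the most abundant of the 10 regulators at 120 ± 17.1 CPM/kb (SD, n = 3) and Esrra followed at 39.5 ± 6.39 CPM/kb (SD, n = 3). Ppara (22.4 ± 9.52 CPM/kb) and Esrrg (16.8 ± 2.39 CPM/kb) came next, and their ranges of mean ± SD overlapped. Then came Tfam at 9.30 ± 0.249 and Ppargc1a at 9.04 ± 2.92 CPM/kb, whose ranges of mean ± SD overlapped as well. Ppard, Esrrb and Ppargc1b followed, with overlapping ranges for Esrrb and Ppargc1b, and Nrf1 was lowest at 1.47 ± 0.0850 CPM/kb (SD, n = 3). In the libraries labelled cKO, Perm1 (87.5 ± 11.2 CPM/kb) and Esrra (36.3 ± 2.04 CPM/kb) kept the first places. Tfam (11.1 ± 0.621 CPM/kb) then stood above Ppara (8.56 ± 1.75 CPM/kb), and Esrrg (5.37 ± 2.26 CPM/kb) came after Ppargc1a (7.83 ± 0.574 CPM/kb). From Ppara down to Ppard, and for Esrrb and Nrf1 at the low end, the ranges of mean ± SD of neighbours in that order overlapped.

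Neither PGC-1 coactivator passed the test. Ppargc1a had 52.6, 44.8 and 81.3 CPM among Ctrl-labelled libraries 1, 2 and 3 and 49.0, 49.9 and 56.0 CPM among cKO-labelled ones 1, 2 and 3. Ctrl 3 was the highest of the 6 libraries, and the groups overlapped. The log2 fold change was -0.21 (standard error 0.21, edgeR adjusted p = 0.501), with a 95% interval from -0.69 to 0.28. Without Ctrl 3 it turned to 0.085 (adjusted p = 0.589), and over all alternatives the adjusted p ran from 0.12 to 0.651. Ppargc1b, the related coactivator PGC-1 beta, had 12.3, 12.8 and 11.2 CPM among Ctrl-labelled libraries and 10.4, 13.1 and 13.0 CPM among cKO-labelled ones, with overlapping groups. Its log2 fold change was 0.012 (95% interval -0.27 to 0.29). A miss of the threshold does not show equal levels, and differences within these intervals are not excluded for either coactivator.

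Perm1, the muscle regulator downstream of PGC-1 and ERR, had lower values in each cKO-labelled library but missed the threshold. Its values were 527, 484 and 396 CPM among Ctrl-labelled libraries and 347, 382 and 295 CPM among cKO-labelled ones. No library labelled cKO reached the lowest library labelled Ctrl, a separation in this direction that 3 of the 10 regulators showed against 21.9% of all genes tested. In either direction it was 4 of 10 against 43.9%, with Tfam higher among cKO-labelled libraries (22% of all genes tested). The log2 fold change of -0.46 (standard error 0.14) did not pass in edgeR's quasi-likelihood test (adjusted p = 0.0542). It passed with DESeq2's Wald test (adjusted p = 0.0176), with scaling by total counts (-0.71, adjusted p = 0.0175), and without Ctrl 3 (adjusted p = 0.0272) or cKO 2 (adjusted p = 0.0429), in a range from 0.0175 to 0.162 over the alternatives. The gene lies on chromosome 4 from 156215868 to 156221307 (GRCm38).

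Of the 3 estrogen-related receptors, Esrrg passed the test, while Esrra and Esrrb did not. Esrra, the most abundant of them, had 183, 195 and 142 CPM among Ctrl-labelled libraries and 165, 149 and 163 CPM among cKO-labelled ones. All 3 libraries labelled cKO lay inside the range of those labelled Ctrl, and the log2 fold change was -0.12 (95% interval -0.42 to 0.18, edgeR adjusted p = 0.508). The exons of Esrra share 3.74% of their bases with other genes, Trmt112 on the opposite strand among them.

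Esrrg had the largest fold change of the 10. Its counts were 4744, 3909 and 3533 among Ctrl-labelled libraries and 1005, 1894 and 988 among cKO-labelled ones, or 121, 94.3 and 96.6 CPM against 28.4, 49.2 and 22.5 CPM. The groups were far apart, and cKO 2 was the highest of its group. Mean CPM was 3.12-fold higher among Ctrl-labelled libraries, with a log2 fold change of -1.64 (standard error 0.28, edgeR adjusted p = 0.00839). The call held in each of the 13 alternatives, with log2 fold changes from -2.05 (without cKO 2) to -1.44 (without cKO 3) and adjusted p of at most 0.038. Esrrg spans chromosome 1 from 187608791 to 188214885, and its exons overlap those of no other gene in GENCODE M21.

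Esrrb, the scarcest ERR, had 22.3, 23.1 and 10.8 CPM among Ctrl-labelled libraries and 8.78, 15.4 and 6.48 CPM among cKO-labelled ones. Ctrl 3 lay below cKO 2, so the groups overlapped. The log2 fold change of -0.88 had a standard error of 0.38 and did not pass (edgeR adjusted p = 0.135), and its 95% interval ran from -1.77 to 0.016. Without cKO 2 it was -1.32 and passed (adjusted p = 0.0403). Over the alternatives the adjusted p ranged from 0.0353 to 0.308, the lowest with the mouse number as a block.

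Because these genes share a binding site, the make-up of the family was computed in each library from CPM/kb, a measure chosen after the values were seen that does not depend on the scaling of libraries. Esrrg made up 30.1%, 23.9% and 31.3% of ERR transcripts among Ctrl-labelled libraries and 10.4%, 17.8% and 8.64% among cKO-labelled ones. Esrra took 66.5% ± 3.16 (SD, n = 3) in the former and 83.8% ± 6.53 (SD, n = 3) in the latter. Neither share overlapped between groups (p = 0.1 in a two-sided exact permutation test, which cannot go lower with 3 libraries against 3, for 9 shares compared in 3 families). Shares within a family are bound to each other, so that of Esrra is no separate result beside that of Esrrg. The CPM of Esrra did not pass (log2 fold change -0.12, edgeR adjusted p = 0.508). Esrrb held 2.56% to 6.0% in every library. Summed over the family, the level was 59.4 ± 8.42 CPM/kb (SD, n = 3) among Ctrl-labelled libraries and 43.3 ± 1.32 CPM/kb (SD, n = 3) among cKO-labelled ones.

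**Figure D3:**
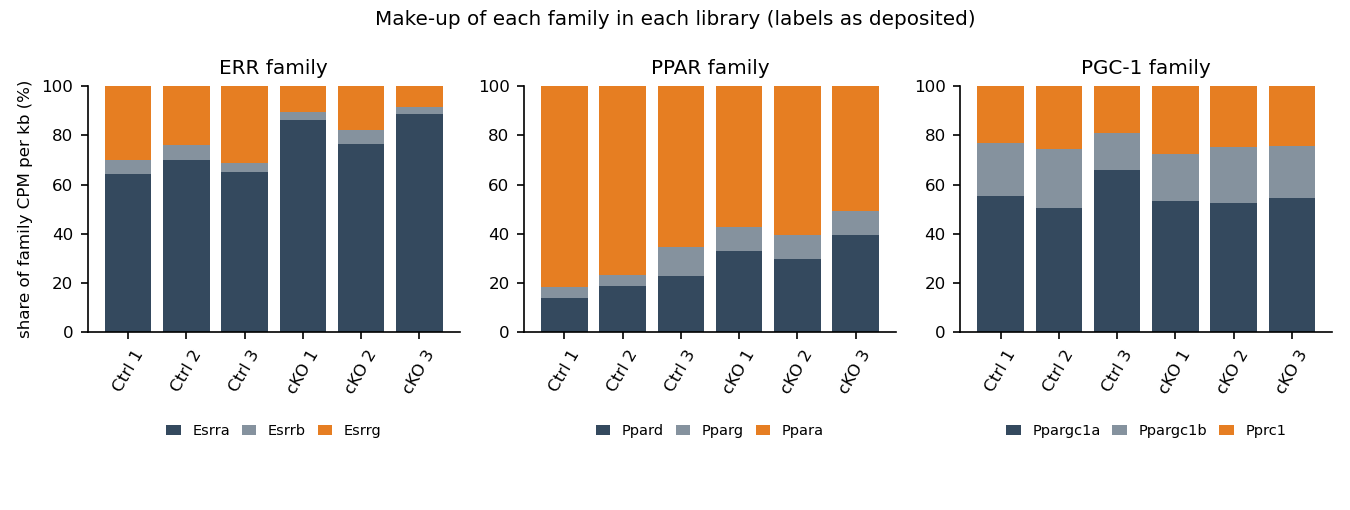
Share of each gene in the summed CPM per kilobase of its family (vertical axis, percent) in each of the 6 libraries, for ERR, PPAR and PGC-1 genes. Esrrg (orange, left) holds 23.9% to 31.3% among Ctrl-labelled libraries and 8.64% to 17.8% among cKO-labelled ones, Ppara (orange, middle) holds 65.1% or more against 60.5% or less, and the shares of the PGC-1 genes overlap between groups.

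Of the PPAR receptors, Ppara passed and Ppard did not. Ppara, the receptor tied to fatty acid oxidation in liver, heart and muscle, had 122, 85.9 and 49.4 CPM among Ctrl-labelled libraries and 38.2, 35.1 and 25.3 CPM among cKO-labelled ones. The groups did not overlap, though the libraries labelled Ctrl spread over 2.48-fold. Mean CPM was 2.62-fold higher among Ctrl-labelled libraries, and the log2 fold change was -1.39 (standard error 0.32, edgeR adjusted p = 0.0214). The call was less firm than that of Esrrg. It held in 2 of the 6 fits that left out a library and was lost without Ctrl 1 (log2 fold change -1.04, adjusted p = 0.0578), Ctrl 2 (-1.39, adjusted p = 0.0598), cKO 1 (-1.53, adjusted p = 0.0555) or cKO 3 (-1.25, adjusted p = 0.0752), in a range from 4.21e-05 to 0.0752 over all alternatives. Ppara lies on chromosome 15 from 85734983 to 85802819.

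Ppard, the PPAR of endurance-trained muscle, had 41.1, 40.9 and 33.8 CPM among Ctrl-labelled libraries and 43.2, 34.0 and 38.5 CPM among cKO-labelled ones. These ranges nearly coincide. The log2 fold change was -0.0014 with a 95% interval from -0.28 to 0.27 (edgeR adjusted p = 0.994). Within the PPAR family, which here includes Pparg, the adipocyte receptor, Ppara accounted for 81.7%, 76.7% and 65.1% of CPM/kb among Ctrl-labelled libraries and 57.1%, 60.5% and 50.6% among cKO-labelled ones. Ppard held 18.5% ± 4.39 (SD, n = 3) and 34.1% ± 4.80 (SD, n = 3). The groups were apart for both shares (p = 0.1 by the same exact permutation test). These shares are bound to each other, and that of Ppard is no separate result, since its CPM overlapped between groups.

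Of the regulators of mitochondrial gene expression, Nrf1 had 16.2, 14.7 and 14.6 CPM among Ctrl-labelled libraries and 16.1, 16.4 and 14.3 CPM among cKO-labelled ones. The groups overlapped, and the 95% interval of its log2 fold change ran from -0.18 to 0.26, the narrowest of the regulators that did not pass. Tfam had 40.7, 42.6 and 40.6 CPM among Ctrl-labelled libraries and 46.2, 50.4 and 51.4 CPM among cKO-labelled ones. Every library labelled cKO was above every library labelled Ctrl, by a log2 fold change of 0.26 (standard error 0.07, edgeR adjusted p = 0.0398). Tfam lies on chromosome 10 from 71225464 to 71238280. Its call was lost in each of the 6 fits that left out a library (log2 fold change 0.21 to 0.29, adjusted p from 0.0585 without cKO 1 to 0.164 without cKO 3), without the filter on low counts (0.053), and with the block (0.0965).

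Scaling bears on the small differences. When libraries were scaled by total counts rather than TMM, the median log2 fold change over the 14180 genes moved from -0.015 to -0.27, and the log2 fold change of Tfam became 0.0039 (adjusted p = 0.978, against 0.0256 to 0.164 in the other alternatives). Set against that median, Tfam was 0.27 higher under both scalings. The values of Ppargc1b (-0.24) and Nrf1 (-0.21) turned negative with total counts without passing. Esrrg (-1.88) and Ppara (-1.65) kept their direction and their calls.

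Other transcripts of fiber type moved with these regulators. Of 10 slow-fiber markers, 4 passed the test, all higher among Ctrl-labelled libraries (Casq2, Atp2a2, Myl2 and Tnnt1), against 11.8% of all genes tested in that direction, and each of the 10 had a negative log2 fold change, with a median of -2.34. The markers summed to 14781, 8800 and 8618 CPM among Ctrl-labelled libraries 1, 2 and 3 and to 2064, 3947 and 469 CPM among cKO-labelled ones 1, 2 and 3. Within the cKO-labelled group, Esrrg, Esrrb and Perm1 followed the same order, highest in cKO 2 and lowest in cKO 3, while Ppara did not and was highest in cKO 1. Ctrl 1 had the highest slow-fiber sum and the highest Esrrg, Ppara and Perm1, whereas Esrrb was highest in Ctrl 2. Ctrl 2 and Ctrl 3 had nearly equal slow-fiber sums, and Esrrg was slightly higher in Ctrl 3, the library with the lower sum. All 8 markers of fast fibers, among them the type IIb myosin Myh4, passed in the other direction (12.6% of all genes tested), with sums of 56429 to 95759 CPM among Ctrl-labelled libraries and 149624 to 192746 CPM among cKO-labelled ones. The type IIx and IIa myosins went with the slow markers, since Myh1 (log2 fold change -0.93, edgeR adjusted p = 0.0341) and Myh2 (-1.23, edgeR adjusted p = 0.0392) were higher among Ctrl-labelled libraries, though each passed in 2 of 6 fits with a library left out. The part of fiber type in the difference of Esrrg and Ppara was not tested, and in whole-muscle RNA fewer fibers of a type and less RNA per fiber cannot be told apart.

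**Figure D4:**
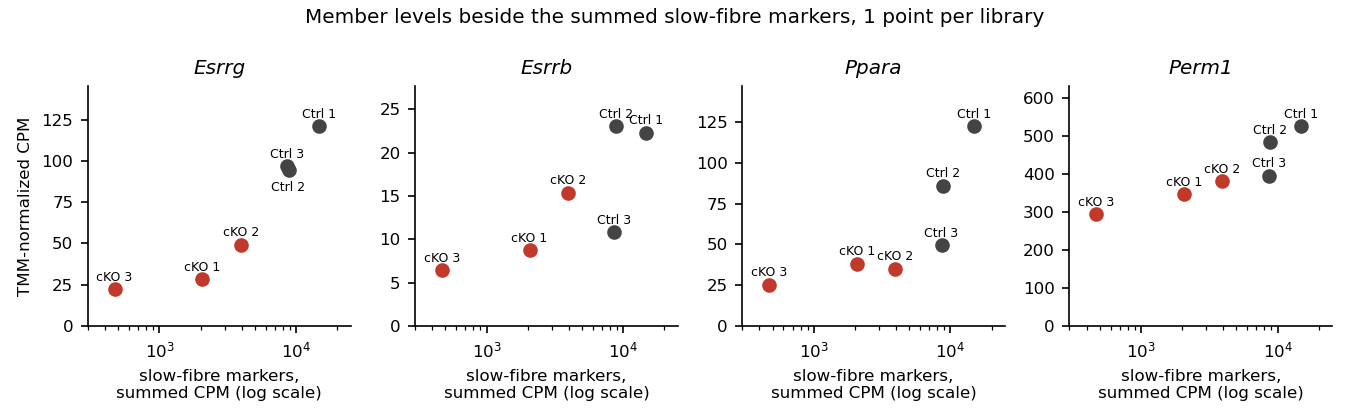
CPM of Esrrg, Esrrb, Ppara and Perm1 (vertical axes, from 0) against the summed CPM of 10 slow-fiber markers (horizontal axis, log scale), 1 point per library, labelled Ctrl in grey and labelled cKO in red. For Esrrg the points run from cKO 3 (469 summed CPM, 22.5 CPM of Esrrg) to Ctrl 1 (14781 and 121 CPM), and for Esrrb the library Ctrl 3 falls below cKO 2.

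Markers of other cells also differed. Immune markers summed to 125 to 144 CPM among Ctrl-labelled libraries and 55.4 to 82.4 CPM among cKO-labelled ones, with 4 of 6 genes passing, all higher among Ctrl-labelled libraries. Of 5 markers of fibro-adipogenic progenitors, 3 passed, all higher among Ctrl-labelled libraries, with sums of 891 to 1048 CPM there and 600 to 887 CPM among cKO-labelled ones. Over all genes tested, 11.8% passed in this direction. The progenitor markers Pdgfra (log2 fold change -0.18, edgeR adjusted p = 0.357) and Dcn (0.20, edgeR adjusted p = 0.327) did not pass. Dcn, the most abundant of that list (mean 430 and 494 CPM), went the other way, and the progenitor sums of the groups nearly met. Endothelial markers (326 to 340 against 300 to 337 CPM) and adipocyte markers (200 to 251 against 202 to 253 CPM) had overlapping sums. Fabp4 made up most of the adipocyte sum, and other markers of that list varied more, such as Lep (mean 4.43 and 11.3 CPM, log2 fold change 1.35, edgeR adjusted p = 0.183) and Cidea (-1.33, edgeR adjusted p = 0.108), while the brown fat marker Ucp1 was at 0 counts in 4 of the 6 libraries. The part of these cells in the differences above was not tested.

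Genes most like each regulator that passed were taken by Pearson r of log2 CPM over the 6 libraries, among genes with a mean CPM of at least 1. The libraries share depth and group with each gene compared, so such an r is a description of these libraries, with no test. For Esrrg the closest were Acss1 (r = 0.999), which makes acetyl-CoA in mitochondria, Sulf2 (r = 0.998), a heparan sulfatase, and Rgag4 (r = 0.997). Ppara was closest to Pbld1 (r = 0.998), Gstk1 (r = 0.997) and Fgd5 (r = 0.996). Tfam went with Pot1a (r = 0.995), a telomere protein gene, Crispld2 (r = 0.994) and Dhcr7 (r = 0.991), an enzyme of cholesterol synthesis.

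Receptor partners and coregulators that passed were all higher where the label is cKO with TMM factors (5 of 7 with total counts, and 6 of 7 without Ctrl 3), the direction opposite to Esrrg and Ppara. Of 20 such genes, 7 passed against 24.4% of all genes tested (12.6% in that direction), and the median log2 fold change was 0.15 (-0.015 over all genes tested). Rxrg, the RXR of skeletal muscle, had 38.3, 39.0 and 47.7 CPM among Ctrl-labelled libraries and 90.6, 77.2 and 73.3 CPM among cKO-labelled ones. That is a log2 fold change of 0.95 (standard error 0.12, edgeR adjusted p = 0.00369). The broadly expressed Rxra had 162 ± 8.56 CPM among Ctrl-labelled libraries and 254 ± 11.9 CPM among cKO-labelled ones (SD, n = 3 each, log2 fold change 0.65). Hdac3, the deacetylase of the NCoR corepressor complex, had 51.3 ± 2.34 CPM with the label Ctrl and 76.3 ± 1.17 CPM with cKO (SD, n = 3 each, log2 fold change 0.57). All 3 calls held in the 13 alternatives.

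Upstream of Ppargc1a, 7 of 24 genes passed, 6 of them higher among cKO-labelled libraries, with a median log2 fold change of 0.054. Over all genes tested 24.4% passed, 12.6% higher among cKO-labelled libraries and 11.8% higher among Ctrl-labelled ones. Prkaa2 and Prkaa1 encode the alternative catalytic subunits of AMPK, the energy-sensing kinase, and differed in opposite directions. Prkaa2, the main form in muscle fibers, had 187, 178 and 210 CPM among Ctrl-labelled libraries and 327, 299 and 326 CPM among cKO-labelled ones (log2 fold change 0.73, standard error 0.09, edgeR adjusted p = 0.00394). Prkaa1 had 28.7, 29.9 and 32.2 CPM against 19.8, 22.4 and 20.4 CPM (-0.54, standard error 0.08, edgeR adjusted p = 0.00691). Prkab2, a regulatory subunit of the same kinase, had 215 ± 65.5 CPM with the label Ctrl and 508 ± 91.3 CPM with cKO (SD, n = 3 each, log2 fold change 1.24). Prkag3, the gamma subunit of fast muscle, named after its values were seen, was higher with the label cKO as well (1.02, standard error 0.23, edgeR adjusted p = 0.0208). Mapk14, the p38 kinase that phosphorylates PGC-1, was also higher among cKO-labelled libraries (0.56, standard error 0.10). The remaining AMPK subunit genes of the list, Prkab1 (0.0036), Prkag1 (-0.10) and Prkag2 (-0.052), did not pass. With total counts 12 genes of this list passed, 5 higher among cKO-labelled libraries, and the count was 4 to 7 with a library left out, 4 without Ctrl 2 or cKO 1.

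In the machinery of mitochondrial DNA, 3 of 20 genes passed, all higher among cKO-labelled libraries as Tfam was, with a median log2 fold change of 0.039. Of all genes tested, 24.4% passed and 12.6% passed in this direction, so the count is near or below the background. Tfb2m, the partner of Tfam in starting mitochondrial transcription, had 39.2, 37.2 and 37.2 CPM among Ctrl-labelled libraries and 48.6 to 50.9 CPM among cKO-labelled ones. The groups were well apart, by a log2 fold change of 0.40 (standard error 0.06, edgeR adjusted p = 0.00752). The other two were Top1mt, the mitochondrial topoisomerase (0.61), and Mgme1, a mitochondrial exonuclease (0.58). With total counts 7 genes passed, 2 of them higher among cKO-labelled libraries, and Tfb2m did not (0.14, adjusted p = 0.229), while it passed in the other 12 alternatives.

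Few known target genes of the receptors passed. Of 27 fatty acid genes known as PPAR targets, 3 passed, 2 higher among Ctrl-labelled libraries and 1 higher among cKO-labelled ones, below the 24.4% of all genes tested (11.8% and 12.6% by direction). A negative log2 fold change was seen in 22 of the 27 and in 7337 of the 14180 genes tested, and the list's median was -0.17. Ucp2 was higher among Ctrl-labelled libraries (35.2, 27.8 and 26.1 against 13.4, 13.2 and 16.2 CPM, log2 fold change -1.05, edgeR adjusted p = 0.00428). Ucp3, the uncoupling protein of muscle, went the other way, with 118, 88.7 and 84.4 CPM among Ctrl-labelled libraries and 249, 121 and 316 CPM among cKO-labelled ones (1.24, standard error 0.33, edgeR adjusted p = 0.0342), a call that held in 1 of 6 fits with a library left out. Cpt1b, which admits fatty acids to mitochondria, passed at a mean of 4.58 and 2.64 CPM, but 81.4% of its exon bases are shared with Gm44502, so its count is uncertain. Pdk4, an established PPAR target named after its values were seen, had 2755, 983 and 1026 CPM among Ctrl-labelled libraries and 970, 772 and 1109 CPM among cKO-labelled ones and did not pass (edgeR adjusted p = 0.217). Its high value in Ctrl 1 was in the library with the highest Ppara, but the other libraries did not keep this order. In cKO 3, Pdk4 was highest of its group while Ppara was lowest (25.3 CPM). Ctrl 2 had less Pdk4 than Ctrl 3 but more Ppara (85.9 against 49.4 CPM). The count of 3 fell to 1 without Ctrl 1, Ctrl 2, cKO 1 or cKO 3.

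Of 29 oxidative metabolism genes known as ERR and PGC-1 targets, 2 passed, which is below the background of 24.4%, and the median log2 fold change was 0.073. Idh3a, a subunit of the citric acid cycle's isocitrate dehydrogenase, had 531, 599 and 513 CPM among Ctrl-labelled libraries and 793, 733 and 847 CPM among cKO-labelled ones (log2 fold change 0.53, standard error 0.10, edgeR adjusted p = 0.0132), a call that held in 9 of 13 alternatives and in 4 of 6 fits with a library left out, and was lost with total counts (0.27, adjusted p = 0.0646, the highest of the alternatives). Ldhb, the lactate dehydrogenase subunit of oxidative fibers, was higher among Ctrl-labelled libraries, with 894, 807 and 553 CPM against 246 ± 135 CPM (SD, n = 3, log2 fold change -1.61, standard error 0.40, edgeR adjusted p = 0.0268), and passed in 3 of 6 fits with a library left out. Ldhb was highest of its group in cKO 2, as Esrrg and the slow-fiber markers were. The count of 2 was 7 with DESeq2's Wald test and 0 to 6 with a library left out, 0 without Ctrl 1 and 6 without Ctrl 3.

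**Figure D5:**
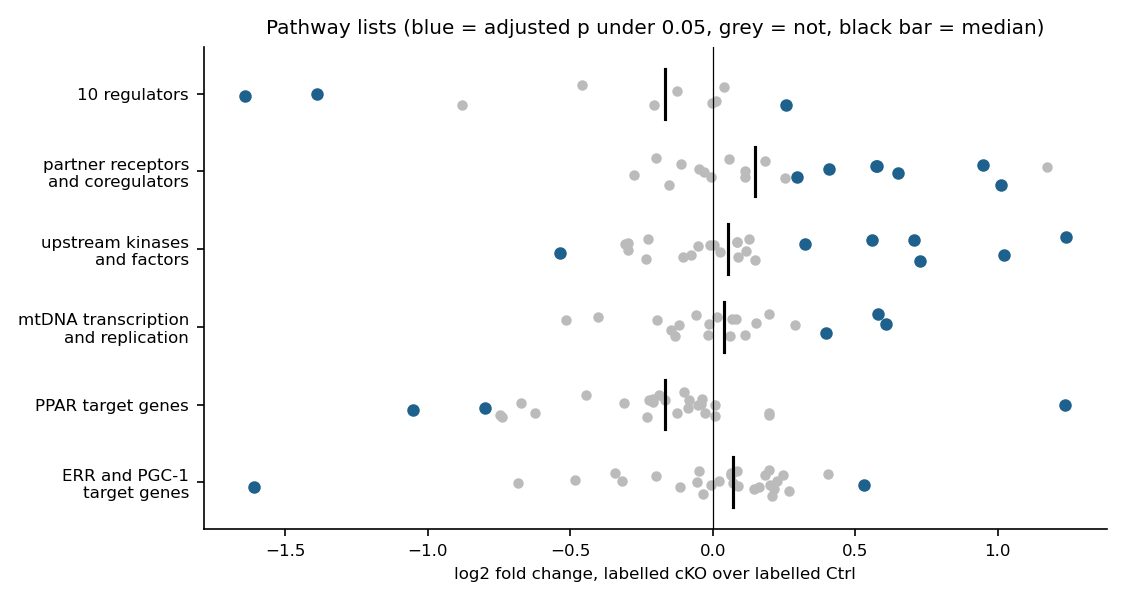
Log2 fold change, labelled cKO over labelled Ctrl (horizontal axis), of each gene in 6 lists, 1 point per gene, blue where the adjusted p was under 0.05, with the median as a black bar. Partner receptors and coregulators that passed lie to the right of 0 (7 of 20), while Esrrg and Ppara lie at the left end of the top row and most target genes lie near 0.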

How the data were processed

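Counts per gene were deposited by the authors as 1 table per library, without normalization, after Trimmomatic 0.39 (trimming), HISAT2 2.1.0 (alignment to mm10) and featureCounts 1.6.2, per the submitters' processing notes. The annotation and the strand setting are not given in the sources used here. Groups were taken from the sample labels. The test was that of edgeR 4.0.16 under R 4.3.3 (TMM, filterByExpr, estimateDisp, glmQLFit, glmQLFTest, Benjamini-Hochberg adjustment over 14180 genes). A gene passed at an adjusted p under 0.05. The fold change limit of 2 is the study's. The study itself worked with DESeq. Standard errors come from the F statistic and intervals are 95%. CPM used TMM factors (0.865 to 1.11). Log2 CPM used a prior count of 2. Replicates differed beyond counting error (chi-square per degree of freedom 24.9 to 85.4). Each library is from 1 mouse per the labels.

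The scripts were tested on simulated data. The members and lists were chosen with earlier results of these data known. Beside the regulators, the genes named are up to 3 per list and direction with the smallest p, markers, the targeted gene and the genes most like each regulator that passed. Prkag3 and Pdk4 fall outside this rule and were chosen after their values were seen. Symbols were matched to GENCODE M21 (23376 of 24421, and all 180 listed genes), and promoters come from RefSeq (GRCm38.p6). Alternatives were a robust fit, total counts, DESeq2 (1.42.0) with its Wald test or its size factors alone, no filter, a minimum of 10 counts per library throughout, a block for mouse number, and leaving out libraries one by one.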

Additional observations from a re-analysis of the deposited data

How the results depend on the processing

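With a library left out, the regulators passing numbered 1 to 4, those past 2-fold 1 to 3, all genes passing 1560 to 3585, partners 5 to 8, upstream genes 4 to 7, mitochondrial DNA genes 2 to 4, PPAR targets 1 to 4 and ERR targets 0 to 6. With total counts, which gave 673 genes higher with the label cKO and 4069 higher with Ctrl (1786 and 1668 with TMM factors), 12 upstream and 7 mitochondrial DNA genes passed. With DESeq2's Wald test 7 ERR targets passed. Signs turned for regulators near 0, none of which passed. Ppargc1b was -0.24 and Nrf1 -0.21 with total counts, and Ppard was 0.0076, 0.010 and 0.013 with DESeq2's size factors, no filter and DESeq2's test. With a library left out, Ppargc1a ran from -0.37 to 0.085, Ppargc1b from -0.060 to 0.099, Ppard from -0.10 to 0.064 and Nrf1 from -0.015 to 0.089. The cause was not tested. The shares of Esrrg and Ppara in their families, alternatives added after seeing the data, differed between groups by -18.9 to -14.3 and by -23.2 to -14.9 percentage points with a library left out.

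Mouse numbers are shared by the groups. The deviations of same-numbered libraries correlated at 0.0835, -0.215 and -0.00201, and those of differently numbered ones at -0.217 to 0.194. These values show no pairing, but with so few libraries they cannot exclude it. With the mouse number as a replicate block, 1899 genes passed against 3454 and 1 ERR target passed, 3 regulators passed as before in number, and Tfam (adjusted p = 0.0965) and Esrrb (adjusted p = 0.0353) changed sides of the edgeR threshold. No group was large enough for an outlier test.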
